A study of Mus musculus with 4 samples.

Results

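The genes described here are 41 mouse genes of the endoplasmic reticulum (ER) stress and amino acid responses, taken from a list of gene names and found among 27597 genes on the array. Their mRNA was measured in 4 samples of CD4+ T cells from Balb/C mice with 1-colour Cy3 Agilent arrays, 1 array per group. The first sample was natural regulatory T cells (Treg, CD4+CD25+) transduced with a lentivirus for a short hairpin RNA against Eos, a zinc-finger protein encoded by Ikzf4 (si-Eos). The second was Treg transduced in the same way with a hairpin against Renilla luciferase, the control (si-RL). Both carried a GFP reporter, were cultured with human IL-2 for 60 h, and were sorted for GFP. The third was Treg and the fourth was naive T cells (CD4+CD25-CD62Lhi), both not transduced and taken from spleen and lymph nodes. The labels do not say how many mice gave each sample. With 1 array per group, each difference compares 2 libraries, no test could be run and no p-value is given.

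The 41 genes were split by role into an ATF4 branch of 21 genes, a chaperone branch of 16 genes and 4 stress sensors and regulators. All 41 had at least 1 probe, 69 probes in all, and 38 genes were well above background on every array. The exceptions were Nupr1, Vldlr and Pycr1. Each gene was read from its brightest probe, and its scaled signal is the processed intensity divided by the 75th percentile of its array. Scaled signals compare arrays for 1 probe and do not compare genes with each other. Differences are given on the log2 scale with ± the scanner software's error of the 2 spots, a technical error only, and a gene is counted as higher or lower where 2 arrays differed by at least 2-fold. In RNA of mixed cells, fewer cells of a type and less RNA per cell cannot be told apart.

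As background, cells that lack an amino acid or accumulate unfolded protein phosphorylate the translation factor eIF2 through sensor kinases such as GCN2 and PERK. General translation then slows while the transcription factor ATF4 is made, and ATF4 with its C/EBP partners turns on genes for amino acid synthesis, amino acid import and feedback. Separately, the sensors ATF6 and IRE1 (IRE1 by splicing Xbp1 mRNA) turn on chaperones and other proteins of the ER lumen. T cells use both programmes when they are activated and grow, and plasma cells use the chaperone programme for antibody secretion.

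The branches are regulated through different DNA elements, so their promoters were searched before the levels are described. Windows came from RefSeq (GRCm38.p6, 250 bases before to 50 after each gene's start) and covered 37 of the 41 genes. The C/EBP-ATF response element (CARE, searched as TGATGNAA on both strands) lay in the windows of 7 of 20 ATF4 branch genes (35%), 1 of 14 chaperone branch genes (7.14%) and 1219 of 27025 genes in the table (4.51%). The ER stress response element (ERSE, searched on both strands as CCAAT, any 9 bases, then CCACG) was found in 0 of 20 ATF4 branch genes, 7 of 14 chaperone branch genes (50%) and 37 of 27025 genes (0.137%). Of the sensors, 0 of 3 held either. ERSE-II (ATTGG, any base, then CCACG, both strands) was found in 12 genes of the table (0.0444%), of which Herpud1 was the one member. No window held both ERSE and ERSE-II. A match describes letters and does not show that a factor binds there.

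**Figure D1:**
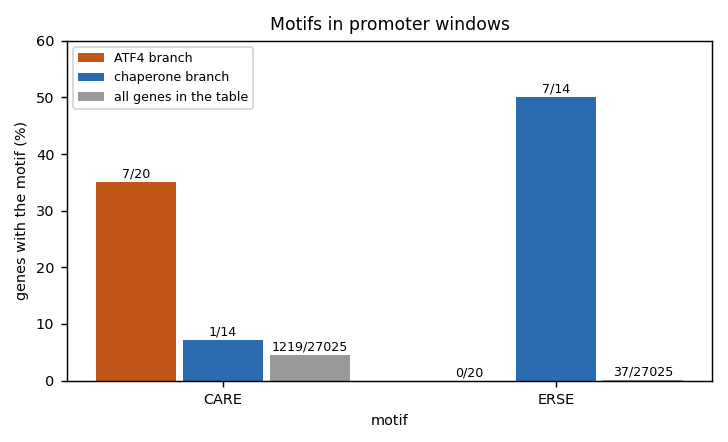
Share of genes (y axis, percent) with the CARE or ERSE motif in a promoter window (x axis) for the ATF4 branch, the chaperone branch and all genes of the RefSeq table, with gene counts above the bars. CARE was found in 7 of 20 ATF4 branch genes and ERSE in 7 of 14 chaperone branch genes, against 4.51% and 0.137% of all genes.

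The stretches before the gene start that hold CARE are shown for the 6 ATF4 branch genes that have one there, since these genes include the largest differences described below. Capitals mark the fixed letters of the motif, each stretch is written 5' to 3' on the gene's strand, and coordinates are GRCm38.p6. The CARE of Trib3 began at base 15 after its start and is not printed.
Asns (chr6:7693210-7693258, minus strand): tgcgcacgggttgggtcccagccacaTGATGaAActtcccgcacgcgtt
Atf3 (chr1:191183410-191183469, minus strand): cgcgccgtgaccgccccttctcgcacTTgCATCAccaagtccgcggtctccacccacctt
Chac1 (chr2:119351023-119351082, plus strand): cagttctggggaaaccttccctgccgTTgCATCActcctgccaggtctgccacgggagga
Nupr1 (chr7:126625547-126625606, minus strand): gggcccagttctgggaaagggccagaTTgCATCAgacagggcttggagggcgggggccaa
Pycr1 (chr11:120643818-120643877, minus strand): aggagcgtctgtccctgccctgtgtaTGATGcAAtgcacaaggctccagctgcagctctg
Vldlr (chr19:27216794-27216853, plus strand): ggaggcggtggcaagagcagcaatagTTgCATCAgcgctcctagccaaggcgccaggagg

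In Asns, the gene of asparagine synthetase, the element began 23 bases before the start. In both Atf3 and Nupr1 it began 110 bases before the start, in Pycr1 103 bases, in Chac1 193 bases and in Vldlr 200 bases. The chaperone branch genes with ERSE follow, with the same conventions, because 3 of them were among the genes with lower signal in the si-RL-labelled library. Herpud1 is shown last as the member with both CARE and ERSE-II.
Hspa5 (chr2:34771999-34772069, plus strand): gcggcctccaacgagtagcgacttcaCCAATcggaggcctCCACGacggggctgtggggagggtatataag
Pdia6 (chr12:17266465-17266535, plus strand): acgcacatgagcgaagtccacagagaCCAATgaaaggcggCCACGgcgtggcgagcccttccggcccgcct
Creld2 (chr15:88819494-88819564, plus strand): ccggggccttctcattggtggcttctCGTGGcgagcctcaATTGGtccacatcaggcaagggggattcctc
Hsp90b1 (chr10:86705507-86705682, minus strand): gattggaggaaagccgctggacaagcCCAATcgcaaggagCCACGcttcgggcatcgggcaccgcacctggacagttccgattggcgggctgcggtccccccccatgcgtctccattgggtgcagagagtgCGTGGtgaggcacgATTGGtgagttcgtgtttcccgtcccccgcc
Calr (chr8:84847049-84847119, minus strand): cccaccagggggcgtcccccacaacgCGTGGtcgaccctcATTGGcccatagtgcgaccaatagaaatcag
Canx (chr11:50325774-50325844, minus strand): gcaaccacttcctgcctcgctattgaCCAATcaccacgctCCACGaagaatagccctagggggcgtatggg
Dnajc3 (chr14:118937801-118937871, plus strand): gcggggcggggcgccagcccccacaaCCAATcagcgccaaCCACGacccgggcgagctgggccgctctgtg
Herpud1 (chr8:94386291-94386413, plus strand): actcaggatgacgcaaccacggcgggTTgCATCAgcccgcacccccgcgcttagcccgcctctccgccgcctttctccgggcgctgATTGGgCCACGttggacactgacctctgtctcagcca

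Hsp90b1 carried 2 ERSE copies, in opposite orientations, beginning 212 and 107 bases before its start. In Hspa5, the gene of the ER chaperone BiP, the element began 65 bases before the start.

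The labels were checked against marker genes before the members were compared. Eos mRNA was higher in the si-Eos-labelled library than in the si-RL-labelled library on all 3 Ikzf4 probes (log2 differences 0.93 ± 0.21, 1.96 ± 0.21 and 1.19 ± 0.22), which goes against the labels. Foxp3, the Treg transcription factor, was also higher there (4.30 ± 0.21), and the 2 are therefore called si-Eos-labelled and si-RL-labelled libraries. If the labels were exchanged, every sign between them would turn. All 5 CD4 T cell markers on the array were well above background on every array. Treg markers summed to a scaled signal of 86.0 in the si-Eos-labelled library, 11.1 in the si-RL-labelled library, 67.0 in Treg and 4.01 in naive T cells. The 6 naive T cell markers summed to 50.9 in the si-Eos-labelled library, 144.7 in the si-RL-labelled library, 64.5 in Treg and 186.2 in naive T cells. Lef1, the largest part of the sum in the si-RL-labelled library, read 11.1 in the si-Eos-labelled library, 81.3 in the si-RL-labelled library, 15.8 in Treg and 69.6 in naive T cells. Ccr7 alone of this list was lower in the si-RL-labelled library than in the si-Eos-labelled library. It read 30.7 in the si-Eos-labelled library, 10.9 in the si-RL-labelled library, 16.3 in Treg and 39.8 in naive T cells. The part of these markers in the differences between the libraries was not tested.

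Markers of other cells also moved between the arrays. Plasma cell markers (7 of 8 on the array) summed to a scaled signal of 9.38 in the si-Eos-labelled library, 14.9 in the si-RL-labelled library, 59.0 in Treg and 38.7 in naive T cells. Jchain and Tnfrsf17 were not well above background in the si-Eos-labelled library, nor was Tnfrsf17 in the si-RL-labelled library, while all 7 plasma cell markers were above background in Treg and naive T cells. In the si-RL-labelled library Ighm read 13.6 and Jchain 0.0701, against 13.8 and 23.1 in naive T cells. Irf4 and Prdm1 of the same list, which activated T cells also express, were highest in the si-Eos-labelled library. Irf4 read 3.79 in the si-Eos-labelled library, 0.862 in the si-RL-labelled library, 0.830 in Treg and 0.246 in naive T cells. Prdm1 read 1.38, 0.254, 0.481 and 0.178 in the same order, so that the si-RL-labelled library lay below Treg. The 8 B cell markers summed to 2.23 in the si-Eos-labelled library, 1.27 in the si-RL-labelled library, 7.33 in Treg and 4.07 in naive T cells, and Pax5 was above background only in the si-Eos-labelled library. NK and CD8 T cell markers summed to 56.1, 4.05, 9.13 and 8.04 in the same order of arrays, of which Nkg7 alone made up 50.5 in the si-Eos-labelled library, with Ncr1 above background in Treg alone. The 8 myeloid markers summed to 13.2, 6.45, 8.22 and 7.42, with 3 to 5 of them above background, and Cst3 made up 12.5 of the sum in the si-Eos-labelled library. The 7 proliferation markers summed to 62.3, 32.7, 49.6 and 35.9, of which Pcna alone made up 32.9, 15.3, 31.7 and 29.9. Mki67, Top2a, Ccnb1, Cdk1 and Rrm2 were higher in the si-RL-labelled library than in naive T cells, while Pcna and Mcm5 were lower. The part of these cells and of proliferation in the differences below was not tested.

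Both branches had their lowest signal most often in the si-RL-labelled library and their top signal most often in the si-Eos-labelled library. The ATF4 branch was highest in the si-Eos-labelled library, where 14 of the 18 genes above background on every array had their top signal and none its lowest. In the si-RL-labelled library, 9 of these 18 genes had their lowest signal. The chaperone branch was lowest in the si-RL-labelled library for 9 of 16 genes and highest in the si-Eos-labelled library for 8 of 16, while 5 of 16 were lowest there. Over 16449 genes above background on all arrays, 33.1% were highest and 28.1% lowest in the si-Eos-labelled library, and 30% were lowest in the si-RL-labelled library.

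**Figure D2:**
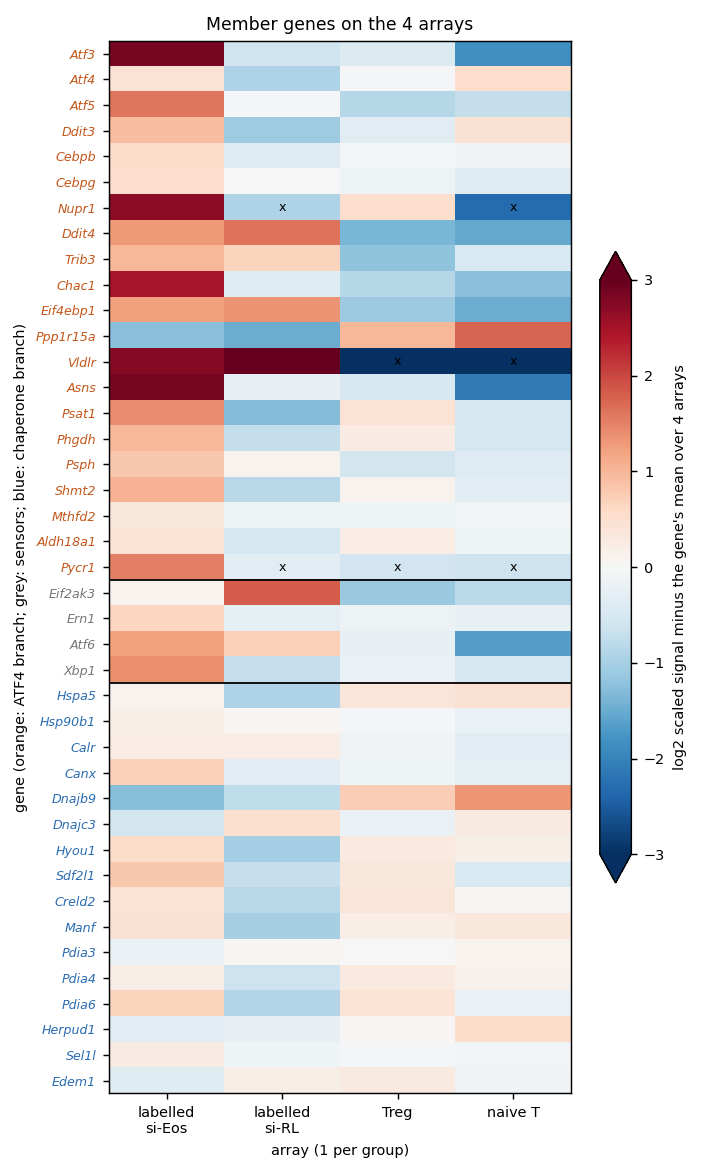
Colour shows the log2 scaled signal of each gene minus its mean over the 4 arrays, with genes in rows by role and arrays in columns; a cross marks a probe not well above background. Atf3, Asns and Chac1 are dark red in the si-Eos-labelled library alone (scaled signal 5.96 against 0.546 in the si-RL-labelled library for Atf3), and Ddit4 and Eif4ebp1 are high in both hairpin libraries.

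The si-Eos-labelled library was first compared with the si-RL-labelled library. Of 39 measured members, 17 were at least 2-fold higher in the si-Eos-labelled library, while over all 17085 measured genes 10.7% were so. At least 2-fold lower were 3 members, and 10.1% of all genes. The ATF4 branch had 9 of 19 genes higher and 1 lower with a median log2 difference of 0.95, and the chaperone branch had 7 of 16 higher and 1 lower with a median of 0.61. Over all measured genes the median was 0.04.

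Among the transcription factors of the ATF4 branch, Atf3 differed most. Its scaled signal was 5.96 in the si-Eos-labelled library, 0.546 in the si-RL-labelled library, 0.625 in Treg and 0.230 in naive T cells (probe on chromosome 1, 192871283 to 192871342, mm8). The si-Eos-labelled library thus stood alone, 3.45 ± 0.21 above the si-RL-labelled library and 3.25 ± 0.20 above Treg. Ddit3, which encodes CHOP, a factor of prolonged stress, had a scaled signal of 5.51 in the si-Eos-labelled library, 1.38 in the si-RL-labelled library, 2.29 in Treg and 3.93 in naive T cells. Its difference between the hairpin libraries was 1.99 ± 0.20, and naive T cells lay between the si-Eos-labelled library and Treg. Atf5, a relative of Atf4, read 3.72 in the si-Eos-labelled library, 1.18 in the si-RL-labelled library, 0.680 in Treg and 0.746 in naive T cells, with a difference of 1.65 ± 0.20 between the hairpin libraries.

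Atf4 itself followed another order. It had a scaled signal of 6.31 in the si-Eos-labelled library, 2.47 in the si-RL-labelled library, 4.62 in Treg and 6.76 in naive T cells (chromosome 15, 80083904 to 80083963, mm8). It was 1.35 ± 0.20 higher in the si-Eos-labelled library than in the si-RL-labelled library, yet within 2-fold of Treg (0.45 ± 0.20), and naive T cells had the top signal. Since ATF4 is controlled mainly by translation, its mRNA does not report its protein, as background. On the probes used, the C/EBP partners differed less between the hairpin libraries, Cebpb by 0.92 ± 0.20 and Cebpg by 0.55 ± 0.20. The other Cebpb probe gave 1.20, and 1 of the other 2 Cebpg probes went the opposite way. Nupr1, a small stress-induced chromatin protein, was at least 12.2-fold higher in the si-Eos-labelled library than in the si-RL-labelled library, where it was not well above background. Its scaled signal was 0.512 in the si-Eos-labelled library, 0.0421 in the si-RL-labelled library, 0.114 in Treg and 0.0161 in naive T cells.

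Of 7 measured enzymes of amino acid and folate metabolism, 4 were at least 2-fold higher in the si-Eos-labelled library than in the si-RL-labelled library and 0 lower (median 1.70). Asns had a scaled signal of 21.5 in the si-Eos-labelled library, 2.50 in the si-RL-labelled library, 2.13 in Treg and 0.690 in naive T cells (chromosome 6, 7625194 to 7625253, mm8). The difference between the hairpin libraries was 3.1 ± 0.20, and the si-RL-labelled library lay close to Treg. Among the genes of serine synthesis, Phgdh and Psat1 put the arrays in 1 order on the probes used. Phgdh, the first enzyme, read 22.4 in the si-Eos-labelled library, 6.88 in the si-RL-labelled library, 13.4 in Treg and 7.91 in naive T cells. Both other Phgdh probes were also higher in the si-Eos-labelled library than in the si-RL-labelled library, by 1.77 and 0.75. The probe at 0.75 had another order, with 4.30 in the si-RL-labelled library, 4.45 in Treg and 2.59 in naive T cells. Psat1, the next enzyme, read 5.42 in the si-Eos-labelled library, 0.824 in the si-RL-labelled library, 2.77 in Treg and 1.41 in naive T cells, a difference of 2.72 ± 0.20 between the hairpin libraries. Psph, the last enzyme, differed by 0.71 ± 0.20 and stayed within 2-fold.

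Shmt2, the mitochondrial enzyme that splits serine for folate metabolism, had a scaled signal of 6.10 in the si-Eos-labelled library, 1.69 in the si-RL-labelled library, 3.21 in Treg and 2.39 in naive T cells. Its difference between the hairpin libraries was 1.85 ± 0.20. Mthfd2, a mitochondrial folate enzyme further along, was nearly level, with scaled signals between 1.30 and 1.83 on the 4 arrays. Aldh18a1, of proline synthesis, differed by 0.95 ± 0.21. Pycr1, the last enzyme of proline synthesis, was well above background in the si-Eos-labelled library alone, at least 1.79-fold over the si-RL-labelled library and at least 2.17-fold over Treg.

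The feedback and effector genes of the ATF4 branch did not move as a block between the hairpin libraries, with 1 of 6 at least 2-fold higher, 1 lower and a median of 0.05. Chac1, which degrades glutathione, had a scaled signal of 0.812 in the si-Eos-labelled library, 0.114 in the si-RL-labelled library, 0.0818 in Treg and 0.0620 in naive T cells, and was the gene of this group that was higher (2.83 ± 0.23). Ddit4, an inhibitor of mTORC1 also known from hypoxia, read 30.1 in the si-Eos-labelled library, 38.4 in the si-RL-labelled library, 4.81 in Treg and 4.32 in naive T cells. Here the arrays fell into a hairpin pair and an untransduced pair. Trib3, a pseudokinase that restrains ATF4, read 2.88 in the si-Eos-labelled library, 2.30 in the si-RL-labelled library, 0.623 in Treg and 1.05 in naive T cells. Eif4ebp1, a repressor of cap-dependent translation, read 7.59 in the si-Eos-labelled library, 8.27 in the si-RL-labelled library, 1.54 in Treg and 1.15 in naive T cells. Both shared the split of Ddit4 on the probes used. The other Trib3 probe had a smaller split, with 0.481 in the si-Eos-labelled library, 0.376 in the si-RL-labelled library, 0.209 in Treg and 0.330 in naive T cells.

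Vldlr, a lipoprotein receptor, was the branch's exception. Its scaled signal was 0.637 in the si-Eos-labelled library, 2.66 in the si-RL-labelled library, 0.00674 in Treg and 0.00746 in naive T cells, and it was not well above background in either untransduced sample. It was lower in the si-Eos-labelled library than in the si-RL-labelled library (-2.06 ± 0.20, and -2.78 on its other probe). Ppp1r15a, which encodes GADD34, the phosphatase subunit that restores eIF2 activity, ran the other way from Ddit4. It read 2.44 in the si-Eos-labelled library, 2.07 in the si-RL-labelled library, 11.5 in Treg and 19.3 in naive T cells.

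In the chaperone branch, 6 of 10 chaperones and cofactors were at least 2-fold higher in the si-Eos-labelled library than in the si-RL-labelled library and 1 was lower. Hspa5 had a scaled signal of 31.0 in the si-Eos-labelled library, 15.2 in the si-RL-labelled library, 37.3 in Treg and 39.4 in naive T cells (chromosome 2, 34598119 to 34598178, mm8). The si-RL-labelled library was the low array, 1.03 ± 0.20 under the si-Eos-labelled library on the log2 scale, and the other 3 lay close together. The call sat at the threshold and fell to 0.84 with quantile normalization. Hyou1, an ER chaperone also induced by low oxygen, read 9.32 in the si-Eos-labelled library, 3.13 in the si-RL-labelled library, 7.73 in Treg and 7.17 in naive T cells. Manf, a secreted ER stress factor, read 8.17 in the si-Eos-labelled library, 3.0 in the si-RL-labelled library, 6.85 in Treg and 7.48 in naive T cells. Both had the same low array as Hspa5, with differences of 1.57 ± 0.20 and 1.45 ± 0.20 between the hairpin libraries.

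Creld2, an ER stress protein with isomerase activity, had a scaled signal of 13.2 in the si-Eos-labelled library, 5.49 in the si-RL-labelled library, 12.7 in Treg and 10.1 in naive T cells. Sdf2l1, a cofactor of BiP, read 3.12 in the si-Eos-labelled library, 1.09 in the si-RL-labelled library, 2.27 in Treg and 1.29 in naive T cells, so that naive T cells joined the low array. Of the disulfide isomerases, Pdia6 was higher by 1.56 ± 0.20, Pdia4 differed by 0.82 ± 0.20 and Pdia3 by -0.27 ± 0.20. The genes of ER-associated degradation stayed within 2-fold: Herpud1, a ubiquitin-like membrane protein, at -0.09 ± 0.20, the adaptor Sel1l at 0.39 ± 0.21 and the mannosidase-like Edem1 at -0.54 ± 0.20. The direction of Sel1l and Edem1 depended on the probe. Other Sel1l probes gave -0.53 and -0.20, and other Edem1 probes 0.53 and -0.30. Hsp90b1, the ER form of HSP90, was level at 0.10 ± 0.20.

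Several chaperone branch genes depended on the probe. Calr, which encodes calreticulin, differed by -0.01 ± 0.20 between the hairpin libraries on its brightest probe and by 1.99 on its other probe, which read 9.94 in the si-Eos-labelled library, 2.49 in the si-RL-labelled library, 9.12 in Treg and 7.99 in naive T cells, the pattern of Hspa5. Canx (calnexin) was counted as higher at 1.02 ± 0.20, with its other probes at 0.54 and -0.09, and the mean over its probes was 0.49. Dnajc3, the inhibitor p58IPK, was counted as lower at -1.03 ± 0.20, and its other 3 probes gave -1.03, 0.26 and 0.54, with a mean of -0.32 over the probes. For Pdia6, 2 further probes gave 1.61 and 1.17 and the last gave -0.24. Of the 20 members at least 2-fold apart between the hairpin libraries, 6 had a second probe that could be read, and in 3 cases (Canx, Dnajc3 and Pdia6) a probe went the opposite way.

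**Figure D3:**
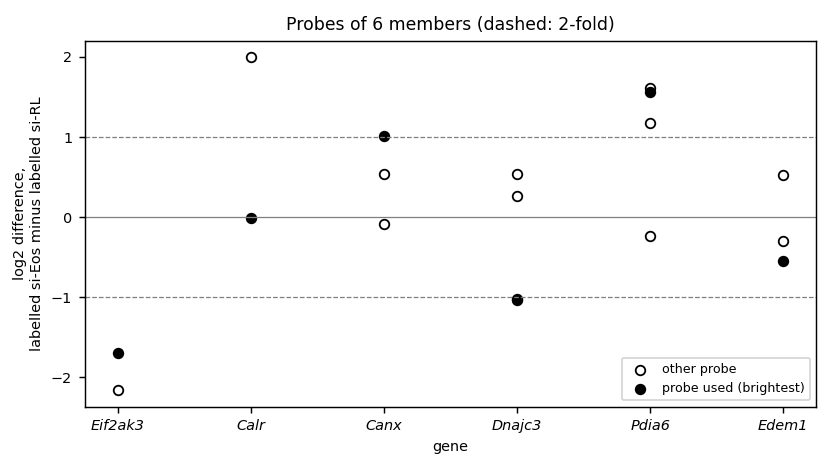
Log2 difference between the si-Eos-labelled and si-RL-labelled libraries (y axis) for every probe of 6 genes (x axis); filled points are the probes used and open points the others. Both Eif2ak3 probes lie below -1, while the Calr probes lie at -0.01 and 1.99.

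The sensors did not share a direction. Xbp1, the factor made after splicing by IRE1, had a scaled signal of 5.36 in the si-Eos-labelled library, 1.28 in the si-RL-labelled library, 1.80 in Treg and 1.43 in naive T cells, and was 2.07 ± 0.20 higher in the si-Eos-labelled library than in the si-RL-labelled library. The probe does not tell spliced from unspliced Xbp1 as analysed here. Ern1, the gene of IRE1, differed by 0.92 ± 0.21. Eif2ak3, the gene of PERK, read 3.08 in the si-Eos-labelled library, 9.94 in the si-RL-labelled library, 1.32 in Treg and 1.62 in naive T cells. It was lower in the si-Eos-labelled library than in the si-RL-labelled library by -1.69 ± 0.20, and by -2.16 on its other probe. Atf6 read 3.56 in the si-Eos-labelled library, 2.53 in the si-RL-labelled library, 1.30 in Treg and 0.489 in naive T cells, the only sensor with its lowest signal in naive T cells. Its other probe differed by 2.15 between the hairpin libraries, where the probe used gave 0.49, and by -0.46 for the si-RL-labelled library against Treg, where the probe used gave 0.97.

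Each hairpin library was then set against untransduced Treg, and both comparisons share the Treg array. Transduction, culture, the GFP sort and the hairpin cannot be told apart in either. Against Treg, the si-Eos-labelled library had 10 of 19 ATF4 branch genes at least 2-fold higher and 1 lower (median 1.26), while in the chaperone branch 0 of 16 were higher and 1 was lower (median 0.13). Over 17899 measured genes, the shares at least 2-fold apart were 8.84% higher and 10.0% lower, and the median was 0.06. For the si-RL-labelled library against Treg, 3 of 18 ATF4 branch genes were higher and 2 lower (median -0.11), while 0 of 16 chaperone branch genes were higher and 7 lower (median -0.60). Of 17084 measured genes there, 7.89% were higher and 8.21% lower, with a median of -0.01. The ATF4 branch median thus exceeded the chaperone branch median by 1.14 and 0.49 in the 2 comparisons, and by 0.34 between the hairpin libraries.

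**Figure D4:**
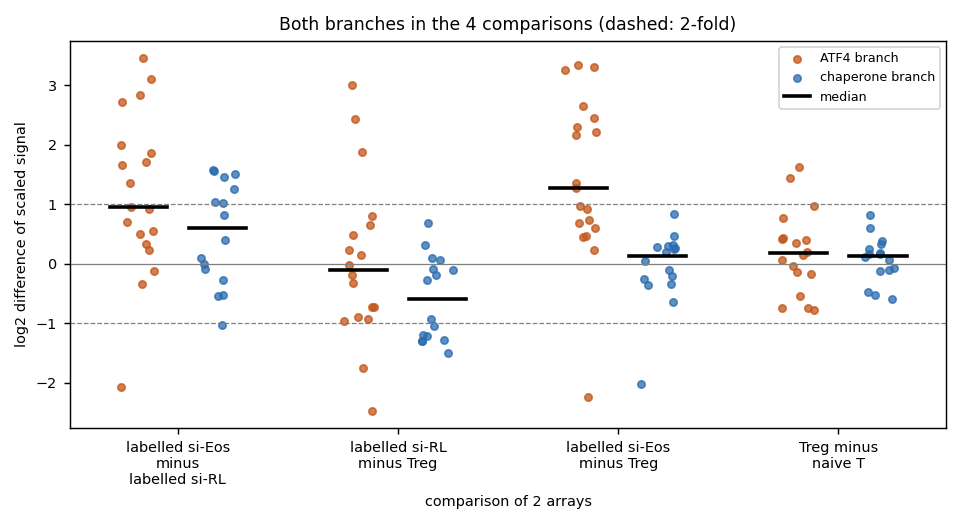
Log2 difference of scaled signal (y axis) for each measured gene of the ATF4 branch and the chaperone branch in 4 comparisons of arrays (x axis); bars are medians and dashed lines mark 2-fold. For the si-Eos-labelled library minus Treg the medians are 1.26 and 0.13, and for the si-RL-labelled library minus Treg they are -0.11 and -0.60.

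Members at least 2-fold from Treg in either hairpin library follow side by side, with Nupr1 and Pycr1 given in other passages. The 17 members within 2-fold in both comparisons are not listed. Farthest of these in the si-RL-labelled library were Phgdh (-0.96), Shmt2 (-0.93), Pdia4 (-0.92) and Atf4 (-0.90). In the si-Eos-labelled library they were Shmt2 (0.93) and Canx (0.83). Among the transcription factors, Atf3 differed from Treg by 3.25 ± 0.20 in the si-Eos-labelled library and -0.20 ± 0.21 in the si-RL-labelled library. Atf5 differed by 2.45 ± 0.20 in the si-Eos-labelled library and 0.80 ± 0.20 in the si-RL-labelled library, and Ddit3 by 1.26 ± 0.20 and -0.73 ± 0.20. Of the enzymes, Asns differed by 3.34 ± 0.20 in the si-Eos-labelled library and 0.23 ± 0.20 in the si-RL-labelled library, and Psph by 1.36 ± 0.20 and 0.65 ± 0.20. These genes lay beyond 2-fold only in the si-Eos-labelled library, as did Chac1 (3.31 ± 0.24, against 0.49 ± 0.26 in the si-RL-labelled library), Atf6 (1.46 ± 0.20, against 0.97 ± 0.20) and Xbp1 (1.58 ± 0.20, against -0.49 ± 0.20). Chac1 came within 2-fold with normexp correction (0.30), and Ddit3 (0.85) and Psph (0.94) did so with spike-in scaling.

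The other feedback and effector genes stood over 2-fold from Treg in both hairpin libraries on the probes used. For Ddit4 the difference was 2.65 ± 0.20 in the si-Eos-labelled library and 3.0 ± 0.20 in the si-RL-labelled library. For Trib3 it was 2.21 ± 0.20 in the si-Eos-labelled library and 1.88 ± 0.20 in the si-RL-labelled library. The other Trib3 probe gave 1.20 in the si-Eos-labelled library and 0.85, within 2-fold, in the si-RL-labelled library. For Eif4ebp1 it was 2.30 ± 0.20 in the si-Eos-labelled library and 2.43 ± 0.20 in the si-RL-labelled library. Ppp1r15a lay below Treg, by -2.24 ± 0.20 in the si-Eos-labelled library and -2.47 ± 0.20 in the si-RL-labelled library. Vldlr was at least 22.3-fold above Treg in the si-Eos-labelled library and at least 93.3-fold in the si-RL-labelled library. The sensor gene Eif2ak3 was higher by 1.22 ± 0.20 in the si-Eos-labelled library and 2.91 ± 0.20 in the si-RL-labelled library on the probe used, but its other probe gave -2.43 and -0.27.

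In the chaperone branch, Dnajb9, the co-chaperone ERdj4, had a scaled signal of 0.678 in the si-Eos-labelled library, 0.971 in the si-RL-labelled library, 2.75 in Treg and 4.14 in naive T cells. It differed from Treg by -2.02 ± 0.20 in the si-Eos-labelled library and -1.50 ± 0.20 in the si-RL-labelled library, and all its probes went the same way. Hspa5 differed by -0.26 ± 0.20 in the si-Eos-labelled library and -1.29 ± 0.20 in the si-RL-labelled library, and Hyou1 by 0.27 ± 0.20 and -1.31 ± 0.20. The other chaperone branch genes at least 2-fold below Treg in the si-RL-labelled library were Sdf2l1 (-1.05 ± 0.20), Creld2 (-1.21 ± 0.20), Manf (-1.19 ± 0.20) and Pdia6 (-1.29 ± 0.20), which differed from Treg by 0.46, 0.05, 0.25 and 0.28 in the si-Eos-labelled library. With normexp background correction, all 7 chaperone branch genes counted as lower in the si-RL-labelled library came within 2-fold of Treg (-0.54 for Sdf2l1 to -0.89 for Dnajb9). Psat1, of the ATF4 branch, differed by 0.97 ± 0.20 in the si-Eos-labelled library and -1.75 ± 0.20 in the si-RL-labelled library.

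**Figure D5:**
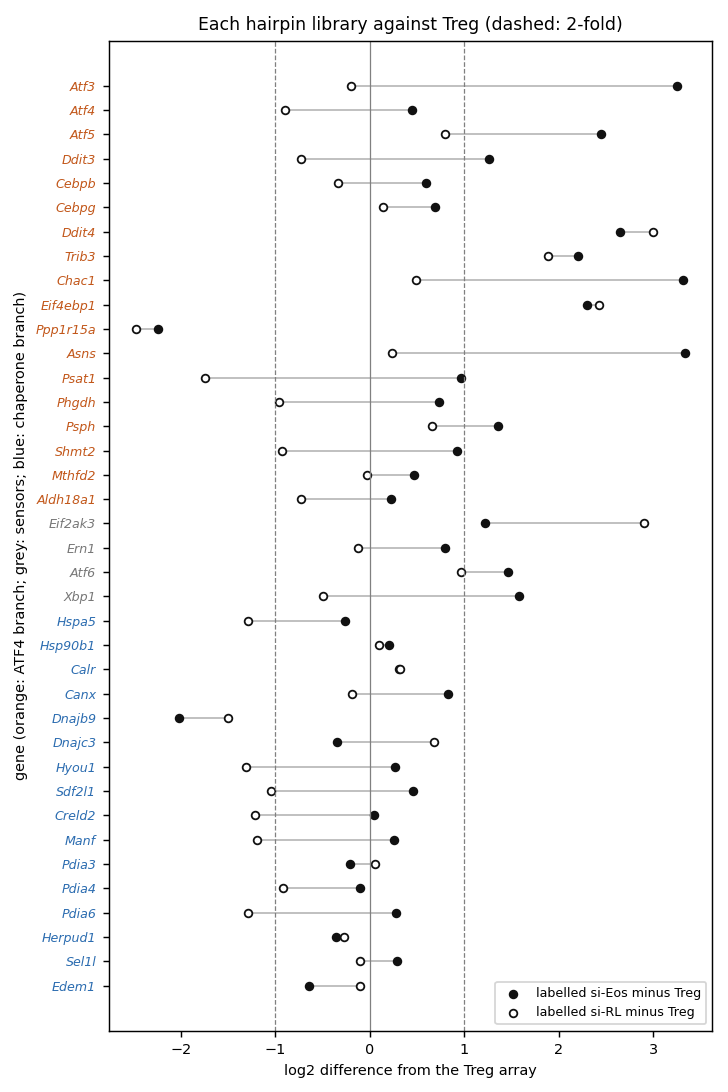
Log2 difference from the Treg array (x axis) for the libraries labelled si-Eos (filled) and si-RL (open), 1 line per gene (y axis), for the genes measured on all 3 arrays; dashed lines mark 2-fold. Ddit4, Trib3 and Eif4ebp1 lie right of 1 in both libraries, and Hspa5, Hyou1 and Manf lie left of -1 in the si-RL-labelled library alone.

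The calls were also read by promoter motif, a split chosen after the values were seen. Of the 7 ATF4 branch genes with CARE, 5 were measured in the si-Eos-labelled library and in Treg, and all 5 (Asns, Atf3, Chac1, Nupr1 and Trib3) were at least 2-fold higher in the si-Eos-labelled library, with a median of 3.25. With normexp correction, Chac1 (0.30) and Nupr1 (-0.15) were not. Vldlr and Pycr1 were not well above background in Treg and are not counted. Of 13 ATF4 branch genes without CARE in their windows, 4 were higher, 1 was lower and the median was 0.74. Over all measured genes with CARE, 11.2% of 331 were higher, against 9.7% of 11042 genes without it. Between the hairpin libraries, 3 of 5 measured ATF4 branch genes with CARE were higher in the si-Eos-labelled library and 1 lower (Vldlr). Of 13 without it, 6 were higher and 0 lower. Over all measured genes there, 17% of 317 with CARE were higher and 9.15% lower, against 11.5% and 8.01% of 10617 without it. In the si-RL-labelled library, 1 of 4 with CARE was higher than in Treg (Trib3), and 1 of 13 without it (Ddit4). The other Trib3 probe gave 0.85, within 2-fold. At least 2-fold lower were 0 with CARE and 2 without it (Ppp1r15a and Psat1). Over all measured genes there, 8.41% of 309 with CARE were higher and 12% lower, against 7.81% and 7.28% of 10532 without it. For the si-RL-labelled library against Treg, 3 of 7 chaperone branch genes with ERSE were at least 2-fold lower (Hspa5, Creld2 and Pdia6). So were 2 of 7 without it (Dnajb9 and Sdf2l1). With normexp correction, all of these came within 2-fold. Of all 19 measured genes with ERSE, 21.1% were lower and 10.5% higher. The lower ones were Derl3 and the same 3 members, so this share is not separate from the members. Of 10822 genes without ERSE, 7.39% were lower and 7.83% higher.

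Among untransduced cells, Treg and naive T cells differed little, both in these genes and over all genes. At least 2-fold higher in Treg were 3 of 38 measured members and at least 2-fold lower was 0, while 5.51% of 17595 genes were higher and 2.04% lower. The 3 were Asns (1.62 ± 0.20), Atf3 (1.44 ± 0.21) and Atf6 (1.41 ± 0.21), of which Atf3 (0.90) and Atf6 (0.88) came within 2-fold with normexp correction. Psat1 (0.97 ± 0.20), Sdf2l1 (0.81 ± 0.20) and Phgdh (0.76 ± 0.20) came next, and Nupr1 was above background in Treg and not in naive T cells, at least 3.89-fold higher. Toward naive T cells, the farthest were Ddit3 (-0.78 ± 0.20), Trib3 (-0.75 ± 0.20), Ppp1r15a (-0.75 ± 0.20) and Dnajb9 (-0.59 ± 0.20), all within 2-fold. The branch medians were 0.17 for the ATF4 branch and 0.13 for the chaperone branch, with -0.02 over all genes.

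The comparison of Treg with naive T cells and that of the hairpin libraries share no array, so members were followed across them as a description. Over the 38 members above background on all arrays, Pearson's r between the 2 differences was 0.53 and Spearman's rho 0.442, while over 16449 genes they were 0.38 and 0.236. Genes are not independent replicates, and the sign would turn if the hairpin labels were exchanged. By sign alone, whatever the size, 20 of the 38 were positive in both comparisons, 5 negative in both, and 9 and 4 of opposite sign. Over the 16449 genes, 4645 were positive in both and 4652 negative in both. Asns and Atf3 were at least 2-fold higher in both comparisons, whereas Ddit3 and Atf4 were so in the si-Eos-labelled library and lay below naive T cells, within 2-fold, in Treg.

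Further ATF4 target genes came from a separate list of 35, chosen with earlier results of these data known. Against the si-RL-labelled library, 16 of 31 measured were at least 2-fold higher in the si-Eos-labelled library and 1 was lower (median 1.02). Over all measured genes, 10.7% were higher and 10.1% lower. Bcat1, a transaminase of branched-chain amino acids, had a scaled signal of 6.94 in the si-Eos-labelled library, 0.348 in the si-RL-labelled library, 1.43 in Treg and 0.0767 in naive T cells. Slc1a4, a transporter of neutral amino acids, read 0.846 in the si-Eos-labelled library, 0.0981 in the si-RL-labelled library, 0.0695 in Treg and 0.125 in naive T cells. Aars, the alanyl-tRNA synthetase, read 17.5 in the si-Eos-labelled library, 2.94 in the si-RL-labelled library, 6.58 in Treg and 7.34 in naive T cells. All had their top signal in the si-Eos-labelled library, as Asns did, and so had the transcription factor gene Jdp2 (3.63 ± 0.21 between the hairpin libraries).

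Against Treg, the si-Eos-labelled library had 19 of 32 of these target genes at least 2-fold higher and 0 lower (median 1.10), and in the si-RL-labelled library 6 of 31 were higher and 6 lower (median -0.14). Over all measured genes, 8.84% were higher and 10.0% lower in the si-Eos-labelled library, and 7.89% higher and 8.21% lower in the si-RL-labelled library. Stc2, a secreted glycoprotein, read 1.97 in the si-Eos-labelled library, 2.30 in the si-RL-labelled library, 0.0508 in Treg and 0.0433 in naive T cells. Sesn2, a leucine-binding inhibitor of mTORC1 that p53 also controls, read 15.5 in the si-Eos-labelled library, 14.3 in the si-RL-labelled library, 1.11 in Treg and 0.620 in naive T cells. They shared the hairpin against untransduced split of Ddit4, and of Trib3 on the probe used. Ndrg1, also known from hypoxia, read 15.4 in the si-Eos-labelled library, 74.1 in the si-RL-labelled library, 3.93 in Treg and 1.47 in naive T cells, highest in the si-RL-labelled library like Vldlr. The list of eIF2 subunits, kinases and exchange factors had 5 of 16 genes higher and 1 lower in the si-Eos-labelled library than in the si-RL-labelled library (median 0.33), with Eif2s2 at 1.25 ± 0.20. Between these 2 libraries, 10.7% of all measured genes were higher and 10.1% lower.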

How the data were processed

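Each of the 4 samples was 1 array. Per the file headers, the deposited intensity values came from Agilent Feature Extraction 9.5.3.1, which subtracted background and detrended each array without normalizing between arrays, and probe coordinates are mm8. The authors' deposited value table held the same intensity, 100% of spots within 0.5%. From these, log2 processed intensity minus the array's 75th percentile over 41174 non-control probes was computed (percentiles of 262 to 392, 64.0% to 68.3% of probes well above background). Outlier spots (71 to 94 per array) were left out and spots of 1 probe averaged. Probes were named through RefSeq (GRCm38.p6) accession, symbol or synonym, and the brightest probe stood for a gene. A comparison measured a gene only if both arrays read its probe as well above background. Where it was not above background on 1 array, the fold is given as "at least", against the higher of that array's lowest signal above background and the probe's own. The counting step was tested on simulated data. All 41 members are described, with up to 4 genes per further list and comparison, those farthest apart whose probes went the same way. Members and lists were chosen with earlier results of these data known. Alternatives were normexp correction (offset 50, limma 3.58.1, R 4.3.3), other scalings, all probes, no filter on dim probes and the value table. Python 3.11.15, pandas 2.3.3 and numpy 2.4.6 were used. Which exon or UTR a probe lies in was not analysed here.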

Additional observations from a re-analysis of the deposited data

Results flagged for a closer look

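Nupr1 lay on opposite sides of Treg in the 2 hairpin libraries, a difference that was not tested. It was 2.16 ± 0.22 above Treg on the log2 scale in the si-Eos-labelled library, while in the si-RL-labelled library it was not well above background and Treg was at least 2.71-fold higher. Its signals were low on every array, and with normexp correction the difference between the si-Eos-labelled library and Treg was -0.15.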

How the results depend on the processing

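No paired analysis was possible because each group had 1 array, and for the same reason no replicate could be left out. A median was taken as moved when it shifted by more than the scanner error of 0.204. Of the branch medians, their gaps and the counts of members under 9 alternatives, 153 values stayed within these limits and 27 did not; the cause was not tested. With spike-in scaling, the median of all genes was -0.36 for the si-Eos-labelled library against Treg, -0.40 for the si-RL-labelled library against Treg and 0.22 for Treg against naive T cells. There, the ATF4 branch medians were 0.85, -0.50 and 0.41, the chaperone branch medians were -0.29, -0.99 and 0.37, members at least 2-fold lower in the si-RL-labelled library than in Treg numbered 15, and those higher in Treg against naive T cells numbered 6. Median scaling gave -0.037 and -0.078 for the ATF4 and chaperone branches in Treg against naive T cells, where all genes had a median of -0.23. Quantile normalization gave -0.083 for the chaperone branch in the si-Eos-labelled library against Treg. With normexp correction, the median of all genes in the same 3 comparisons was -0.36, -0.31 and 0.21, the chaperone branch median was 0.48 for the si-Eos-labelled library against Treg and -0.25 for Treg against naive T cells, the gaps between the branches were 0.77 and 0.34, and members lower numbered 3 for the si-RL-labelled library against Treg and 2 for Treg against naive T cells. Of the 13 members apart in the si-RL-labelled library against Treg, 6 kept their call under normexp. The mean over all probes gave gaps of 1.35 for the si-Eos-labelled library and 0.74 for the si-RL-labelled library against Treg, with chaperone branch medians of -0.088 and -0.85. Between the hairpin libraries, no filter on dim probes gave an ATF4 branch median of 1.35 and a gap of 0.75. Leaving out members whose probes disagreed, an alternative chosen after seeing the data that left 30 of 39 members between the hairpin libraries and 30 of 38 for the si-RL-labelled library against Treg, gave an ATF4 branch median of 1.35 and a chaperone branch median of 1.03 between the hairpin libraries, and a chaperone branch median of -1.19 with a gap of 0.997 for the si-RL-labelled library against Treg. Of single members, Eif2ak3 in the si-Eos-labelled library against Treg turned to -0.61 with the mean over its probes and Nupr1 to -0.15 with normexp. The number of arrays limits the precision.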

Other observations

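Of 23 translocon and signal peptidase genes, 7 were higher in the si-Eos-labelled library by 2-fold or more against the si-RL-labelled library, and 0 lower (median 0.25). Of all genes there, 10.7% were higher and 10.1% lower. In the si-RL-labelled library against Treg, 1 was higher and 1 lower (median -0.31), with 7.89% of all genes higher and 8.21% lower. Sec61a1, the channel subunit, had a scaled signal of 35.5 in the si-Eos-labelled library, 16.2 in the si-RL-labelled library, 25.2 in Treg and 25.8 in naive T cells, and Ssr4, of the translocon-associated complex, read 16.3, 6.10, 11.1 and 11.9 in the same order. The si-RL-labelled library had the lowest signal of both. Of 21 further ER folding genes, 3 were higher and 1 lower in the si-Eos-labelled library against the si-RL-labelled library (median 0.43). The shares of all genes were 10.7% and 10.1%. P4hb, a disulfide isomerase, differed by 1.53 ± 0.20 and Ero1b, an ER oxidase, by -1.31 ± 0.20. Ero1a, the related oxidase known from hypoxia, was above Treg by 2.17 ± 0.20 in the si-Eos-labelled library and by 2.33 ± 0.20 in the si-RL-labelled library.

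Derl3, of ER-associated degradation, had a scaled signal of 0.0839 in the si-Eos-labelled library, 0.155 in the si-RL-labelled library, 0.689 in Treg and 0.455 in naive T cells. Of the 18 other genes of ER-associated degradation, 1 was at least 2-fold higher in the si-Eos-labelled library than in the si-RL-labelled library and 0 lower (median 0.57). Of all genes there, 10.7% were higher and 10.1% lower. Of 16 other stress regulators, 3 were at least 2-fold higher in the si-RL-labelled library than in Treg and 0 lower (median 0.00), against 7.89% and 8.21% of all genes. In the si-Eos-labelled library 4 of the 16 were higher than in Treg and 0 lower, against 8.84% and 10.0% of all genes. Bbc3, which encodes PUMA, read 18.8 in the si-Eos-labelled library, 46.9 in the si-RL-labelled library, 4.39 in Treg and 4.44 in naive T cells. Bcl2l11, which encodes BIM, read 2.48 in the si-Eos-labelled library, 7.52 in the si-RL-labelled library and 1.28 in both untransduced samples. Creb3l2, an ER-bound transcription factor, was instead higher in the si-Eos-labelled library than in the si-RL-labelled library by 1.91 ± 0.20.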
